A study of Mus musculus with 8 samples.

Results

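The MHC class I antigen presentation genes are a set of 10 mouse genes whose products cut, carry and load peptides and display them at the cell surface. The members were chosen by gene symbol: H2-K1, H2-D1, H2-T23, B2m, Tap1, Tap2, Tapbp, Psmb8, Psmb9 and Nlrc5. Of these, 9 had a probe set, 1 each, among the 19505 genes named on the array, and 8 passed the filter on low values. Nlrc5 was not analysed here.

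RNA came from the hippocampus or cerebral cortex of male mice 12 weeks of age, and the question was what clothianidin (CLO), a neonicotinoid insecticide that acts on nicotinic acetylcholine receptors, does to expression in each tissue. The arrays formed 4 groups of 2: hippocampus with CLO at 50 mg/kg/day, hippocampus with vehicle, cortex with the same CLO dose, and cortex with vehicle. All mice were treated for 2 weeks, and the vehicle (control) contained 1% DMSO. No genotype or transgene is given, and the strain is not stated, although class I alleles differ between strains. Nothing in the labels says that the 2 arrays of a group came from separate animals, so the p-values below measure only the spread between these arrays, which may be technical.

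MHC class I molecules are heavy chains paired with beta-2-microglobulin. Proteasomes, in part through interferon-inducible catalytic subunits, cut cytosolic proteins into peptides, the TAP transporter moves these into the endoplasmic reticulum, and tapasin helps to load them. The complex then travels to the cell surface, where CD8 T cells and natural killer receptors read it. In the brain, class I levels are low compared with lymphoid organs, vascular cells and microglia carry much of the display, and neuronal class I molecules have been studied for roles in synapses as well as in immunity.

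The promoters of the heavy chains, B2m and Tap1 are shown because 2 of the heavy-chain genes, H2-T23 and H2-D1, passed the test between tissues below. For H2-D1 both hippocampal means lay below the limit of the filter on low values, so its difference is a description. Every promoter shown holds a CCAAT box, while the other motifs searched stood in only some of them. Psmb8 had no match to any of these motifs. Each line gives the 250 bases upstream of the annotated start in RefSeq (GRCm38.p6), 5′ to 3′ on the gene's strand. Where a gene had several annotated starts, the most upstream was taken. Of the 10 members, 8 matched an entry in this table by symbol. Capitals mark every match, on either strand, to GGGATTCCC (the core bound by NF-kappaB), AANNGAAA (the core bound by interferon regulatory factors), TGACG (the core of a cyclic AMP response element) or CCAAT (the CCAAT box).
H2-K1, chr17:34000348-34000597, minus strand: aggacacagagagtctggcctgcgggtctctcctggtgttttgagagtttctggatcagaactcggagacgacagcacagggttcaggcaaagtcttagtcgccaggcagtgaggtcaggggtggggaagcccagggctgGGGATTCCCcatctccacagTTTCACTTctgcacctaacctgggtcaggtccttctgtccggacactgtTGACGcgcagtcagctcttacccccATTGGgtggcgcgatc
H2-D1, chr17:35262844-35263093, plus strand: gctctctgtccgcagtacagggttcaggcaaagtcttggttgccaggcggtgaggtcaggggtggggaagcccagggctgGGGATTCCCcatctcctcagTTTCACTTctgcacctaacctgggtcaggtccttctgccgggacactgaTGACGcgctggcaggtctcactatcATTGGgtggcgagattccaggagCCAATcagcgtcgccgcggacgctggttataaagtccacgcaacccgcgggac
H2-T23, chr17:36032702-36032951, minus strand: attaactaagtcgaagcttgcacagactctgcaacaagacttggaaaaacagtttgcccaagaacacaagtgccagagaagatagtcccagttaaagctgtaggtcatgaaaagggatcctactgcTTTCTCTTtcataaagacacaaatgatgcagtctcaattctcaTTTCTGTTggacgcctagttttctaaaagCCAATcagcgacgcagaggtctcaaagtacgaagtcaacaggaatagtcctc
B2m, chr2:122147437-122147686, plus strand: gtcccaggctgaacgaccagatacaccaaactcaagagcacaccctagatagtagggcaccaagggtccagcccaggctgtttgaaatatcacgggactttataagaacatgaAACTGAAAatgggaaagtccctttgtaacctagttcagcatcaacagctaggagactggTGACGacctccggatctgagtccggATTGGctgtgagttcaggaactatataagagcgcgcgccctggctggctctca
Tap1, chr17:34187306-34187555, plus strand: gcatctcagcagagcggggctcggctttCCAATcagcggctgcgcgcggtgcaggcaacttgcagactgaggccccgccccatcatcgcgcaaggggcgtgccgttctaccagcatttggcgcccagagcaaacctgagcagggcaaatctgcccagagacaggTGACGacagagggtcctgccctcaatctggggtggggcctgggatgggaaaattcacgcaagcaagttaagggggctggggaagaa

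The GGGATTCCC core stood in 2 of the 8 member windows, H2-K1 and H2-D1, against 0.301% of 32851 windows of the same length. Only this exact string was searched, and its choice is not shown to be independent of these genes. The shares are therefore not a test of enrichment. The AANNGAAA core stood in 4 of 8, namely in all 3 heavy chains and B2m, against 21.3% of windows. TGACG was found in 5 of 8, against 17.8%, and CCAAT in 7 of 8, against 33.8%. The H2-K1 and H2-D1 windows were 87.9% identical over 190 aligned bases, while H2-T23 aligned to H2-D1 with 67.9% identity over 209 bases. Each match in H2-K1, to GGGATTCCC and to the other motifs, lies in a stretch that H2-K1 and H2-D1 share. For every motif the matches of these 2 genes are therefore not independent. H2-T23 held 2 copies of the AANNGAAA core and no GGGATTCCC in these letters. No matches of different motifs overlapped. Tap1 and Psmb9 lie head to head, and their windows shared 225 of 250 bases, so a match there is counted for both. The background took every window with no choice of start, so member and background shares are not counted alike. These matches are descriptions of letters, not of binding.

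Values are log2 expression per probe set, and a difference of 1 on this scale is a doubling. Each difference is hippocampus minus cortex or CLO50 minus control. It was fitted with limma, which pools the spread of all 14804 tested probe sets, and called where the p-value adjusted by the Benjamini-Hochberg method was under 0.05. Probe sets differ in how strongly they hybridise, so no level is set against that of another gene.

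**Figure D1:**
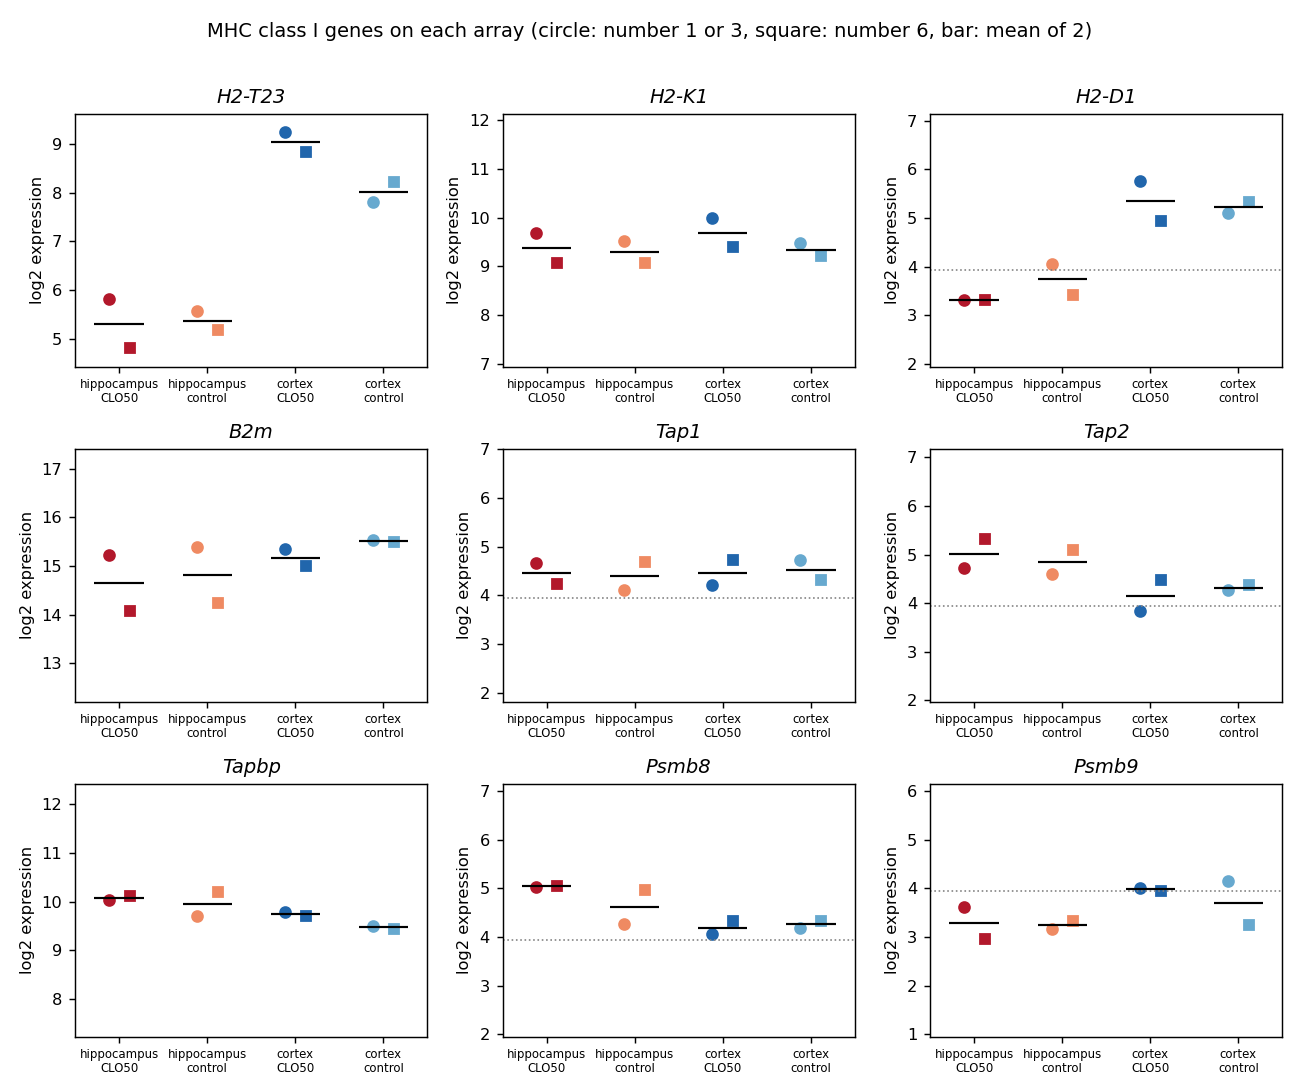
Log2 expression of the 9 members with a probe set on each of the 8 arrays, by group (hippocampus CLO50, hippocampus control, cortex CLO50, cortex control). Points are arrays, circles those numbered 1 or 3 and squares those numbered 6, bars are means of 2, all panels span the same number of log2 units and the dotted line is the filter limit of 3.937. H2-T23 and H2-D1 lie lower on all 4 hippocampal arrays than on any cortical array, while Tap1 overlaps between all groups.

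The member with the largest tissue difference was H2-T23, which encodes the nonclassical heavy chain Qa-1, a ligand of natural killer cell receptors that presents leader peptides of other class I chains. It read 5.81 and 4.8 in exposed hippocampus, 5.56 and 5.17 in control hippocampus, 9.24 and 8.83 in exposed cortex, and 7.80 and 8.22 in control cortex. All hippocampal arrays lay below all cortical arrays, and within cortex both exposed arrays lay above both controls. The order of the group means was exposed cortex, control cortex, control hippocampus and exposed hippocampus, and the last 2 of these overlapped.

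H2-T23 was 13.3-fold lower in hippocampus than in cortex on exposed arrays, with means of 5.31 ± 0.71 in hippocampus and 9.04 ± 0.29 in cortex (SD, n = 2 each). The difference was -3.73 on the log2 scale (SE 0.36, 95% interval -4.51 to -2.95, adjusted p = 3.8e-05 by limma). On control arrays it was 6.25-fold lower, with means of 5.37 ± 0.28 in hippocampus and 8.01 ± 0.30 in cortex (SD, n = 2 each). There the difference was -2.65 (SE 0.36, 95% interval -3.43 to -1.86, adjusted p = 0.00036 by limma). The gene was lower on each of the 4 hippocampal arrays, and both calls held in 18 of 18 alternative analyses.

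H2-D1, a classical heavy chain that presents peptides to CD8 T cells, read 3.32 and 3.32 in exposed hippocampus, 4.05 and 3.42 in control hippocampus, 5.76 and 4.93 in exposed cortex, and 5.10 and 5.33 in control cortex. Both hippocampal means, 3.32 and 3.74, lay below the filter limit of 3.937, so the gene entered the test through its cortical arrays and its hippocampal level is not shown to be above background. No size is therefore given for its difference as a fold. The fitted differences, which set the cortical level against these low readings, were -2.03 on exposed arrays (adjusted p = 0.0026 by limma) and -1.48 on control arrays (adjusted p = 0.013 by limma), and they are given as a description. The control-array call was lost when any 1 of 3 arrays was left out, with -1.60 and adjusted p = 0.058 (limma) without cortex control 1, -1.37 and 0.097 without cortex control 6, and -1.17 and 0.085 without hippocampus control 6. It was also lost without both arrays high in choroid plexus markers (-1.68, adjusted p = 0.069 by limma).

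H2-K1, the other classical heavy chain, read 9.68 and 9.07 in exposed hippocampus, 9.53 and 9.07 in control hippocampus, 10 and 9.39 in exposed cortex, and 9.47 and 9.22 in control cortex. Its groups overlapped in both tissue comparisons. The differences were -0.32 on exposed arrays (95% interval -0.99 to 0.35, adjusted p = 0.53 by limma) and -0.05 on control arrays (95% interval -0.72 to 0.63, adjusted p = 0.94 by limma). The intervals leave room for a difference in either direction, and neither reaches the size measured for H2-T23. Heavy chains are near-identical in parts, and whether their probe sets also bind the RNA of related genes was not tested.

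B2m, the light chain that every class I heavy chain needs to reach the surface, read 15.23 and 14.08 in exposed hippocampus, 15.38 and 14.23 in control hippocampus, 15.34 and 15 in exposed cortex, and 15.54 and 15.50 in control cortex. Both control hippocampal arrays lay below both control cortical arrays, whereas the exposed groups overlapped. The tissue differences were -0.52 on exposed arrays (SE 0.39, adjusted p = 0.41 by limma) and -0.72 on control arrays (SE 0.39, adjusted p = 0.23 by limma). The control-array difference was -1.29 without hippocampus control 1 and -0.14 without hippocampus control 6, so its size depended on which of these arrays was kept. Without both arrays high in choroid plexus markers it was -1.31.

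Neither transporter gene was called between tissues. Tap1, the first TAP subunit, read 4.66 and 4.24 in exposed hippocampus, 4.11 and 4.68 in control hippocampus, 4.21 and 4.72 in exposed cortex, and 4.72 and 4.31 in control cortex. Its tissue differences were -0.015 on exposed arrays and -0.12 on control arrays, with adjusted p of 0.98 and 0.85 by limma, and all groups overlapped.

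Tap2, the partner subunit, read 4.73 and 5.31 in exposed hippocampus, 4.59 and 5.09 in control hippocampus, 3.84 and 4.47 in exposed cortex, and 4.27 and 4.37 in control cortex. In both arms the hippocampal arrays lay above the cortical ones. The differences were 0.87 on exposed arrays (SE 0.34, 95% interval 0.12 to 1.61, adjusted p = 0.12 by limma) and 0.52 on control arrays (adjusted p = 0.33 by limma), so neither was called.

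Tapbp encodes tapasin, which bridges the transporter and empty class I molecules. It read 10.04 and 10.12 in exposed hippocampus, 9.70 and 10.21 in control hippocampus, 9.80 and 9.70 in exposed cortex, and 9.51 and 9.45 in control cortex. Its hippocampal arrays lay above the cortical ones in both arms, by 0.33 on exposed arrays (adjusted p = 0.42 by limma) and 0.48 on control arrays (adjusted p = 0.22 by limma).

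Of the immunoproteasome subunits, Psmb8 read 5.03 and 5.05 in exposed hippocampus, 4.27 and 4.96 in control hippocampus, 4.06 and 4.33 in exposed cortex, and 4.19 and 4.34 in control cortex. The exposed hippocampal arrays lay above every other array. The tissue difference was 0.85 on exposed arrays (SE 0.32, 95% interval 0.15 to 1.54, adjusted p = 0.099 by limma) and 0.35 on control arrays (adjusted p = 0.49 by limma). Psmb9 read 3.61 and 2.96 in exposed hippocampus, 3.17 and 3.33 in control hippocampus, 4.01 and 3.95 in exposed cortex, and 4.15 and 3.25 in control cortex. Its mean over all arrays was under the filter limit, so it was not tested. With no filter its adjusted p was 0.22 for the tissues on exposed arrays and 0.43 on control arrays (limma).

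In the tissue comparison, 2 of the 8 tested members were called lower in hippocampus in each arm, H2-T23 and H2-D1, and none was called higher. Over all probe sets, 5.22% were called lower and 9.25% higher on exposed arrays, and 7.63% lower and 10.1% higher on control arrays. At an unadjusted p under 0.05 there were 4 members on exposed arrays (H2-T23, H2-D1, Tap2, Psmb8), against 29.3% of all probe sets, and 2 on control arrays, against 31.4%. Because H2-D1 passed the filter through cortex, its part of this count is a description. Arrays did not overlap for 3 members higher and 2 lower in the exposed arm, against 35% and 22% of all probe sets, and for 2 higher and 3 lower in the control arm, against 34.5% and 24.7%. By sign alone, 3 members were higher and 5 lower in hippocampus in each arm, against 58% higher and 41.7% lower over all probe sets on exposed arrays and 55.9% and 43.8% on control arrays. The median member difference was -0.17 on exposed arrays and -0.08 on control arrays, beside 0.13 and 0.10 over all probe sets.

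Centring each array on its median moved the median of all probe sets to -0.02 on exposed arrays and -0.06 on control arrays. The share of tissue calls that were higher in hippocampus was 63.9% on exposed arrays as deposited, 51.0% after quantile normalization and 49.1% after centring. On control arrays these shares were 56.9%, 49.1% and 41.0%. Under all 3 scalings the members stood at 3 higher and 5 lower in both arms, and H2-T23 was at -3.87 on exposed arrays and -2.81 on control arrays after centring.

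**Figure D2:**
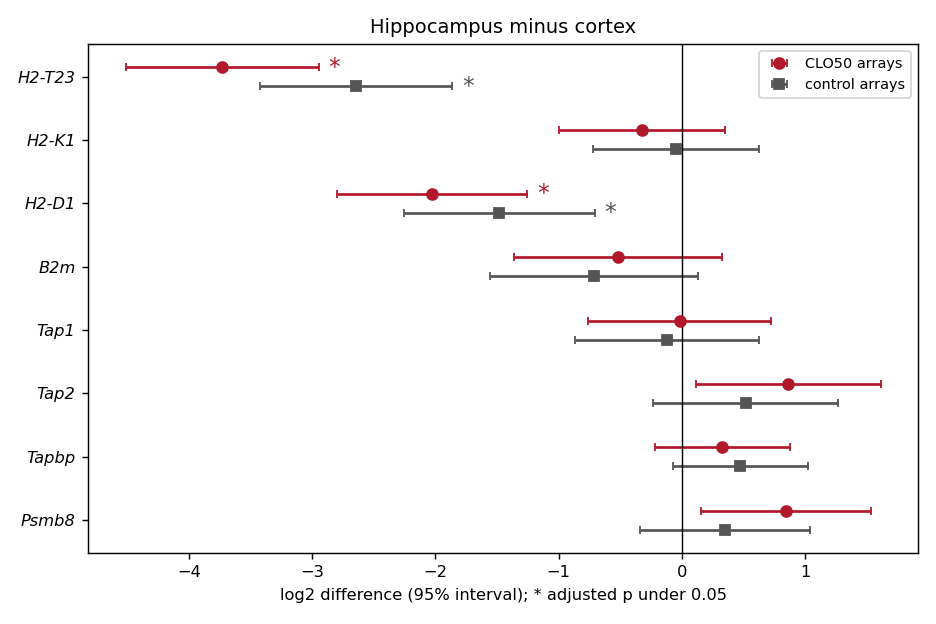
Hippocampus minus cortex difference in log2 expression of the 8 tested members, for exposed (CLO50) and control arrays, with 95% intervals from limma and an asterisk where the adjusted p was under 0.05. H2-T23 (-3.73 and -2.65) and H2-D1 (-2.03 and -1.48) lie to the left of 0, the H2-D1 values being against hippocampal means under the filter limit of 3.937, and the intervals of H2-K1, B2m, Tap1 and Tapbp cross it in both arms.

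Each tissue carried the markers of its label. The 7 tested hippocampal neuron markers averaged 11.24 to 11.50 on exposed and 11.45 to 11.48 on control hippocampal arrays, against 8.57 to 8.60 on exposed and 8.44 to 8.46 on control cortical arrays. Cortical neuron markers, also 7, averaged 8.56 to 9.07 on exposed and 8.45 to 8.53 on control hippocampal arrays, against 10.76 to 11 on exposed and 11.10 to 11.52 on control cortical arrays. Endothelial markers (12 of 13 tested) averaged 8.27 to 8.61 on exposed and 8.23 to 8.47 on control hippocampal arrays, against 8.59 to 8.73 on exposed and 8.56 to 8.58 on control cortical arrays. Microglial markers (15 of 16 tested) averaged 7.62 to 8.01 on exposed and 7.82 to 7.94 on control hippocampal arrays, against 7.42 on both exposed and 7.55 to 7.75 on control cortical arrays. Microglial averages were thus higher in hippocampus in both arms, and endothelial ones were lower on control arrays and overlapped on exposed arrays. Of 9 T and natural killer cell markers, 8 were under the filter limit. The part of these cell types in the class I differences was not tested, and in bulk tissue fewer cells of a type and less RNA per cell cannot be told apart.

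Choroid plexus markers set 2 arrays apart. Their average over 9 tested genes was 11.08 on hippocampus control 1 and 4.85 to 4.88 on the other hippocampal arrays, and 5.98 on cortex control 6 and 3.95 to 4.10 on the other cortical arrays. On cortex control 6 the average rested largely on Ttr, at 15.41 against 4.17 to 5.73 on the other cortical arrays. Clic6 (6.79), Kl (5.91) and Folr1 (5.49) rose less there. Kcne2 (3.22), Slc4a5 (4.13) and Sostdc1 (4.86) lay within the range of the other cortical arrays. Hippocampus control 1 and cortex control 6 are both control arrays, so results of the exposure comparisons were also computed without them.

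In cortex, H2-T23 had the lowest p among the members for exposure, but it was not called. Exposed arrays read 9.24 and 8.83, against 7.80 and 8.22 on control arrays, and the groups did not overlap. The difference was 1.03 (2.03-fold, SE 0.36, 95% interval 0.24 to 1.81) with an unadjusted p of 0.015 and adjusted p = 0.74 by limma. Over 17 alternatives it ran between 0.82 and 1.24, with adjusted p of 0.46 to 1, and without both choroid-plexus-high arrays it was 1.24 (adjusted p = 0.74 by limma).

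None of the 8 members was called in cortex, and over all probe sets 0% were called higher and 0.00675% lower. At an unadjusted p under 0.05 there was 1 member, against 6.18% of all probe sets. The arrays did not overlap for 2 members higher with exposure, H2-T23 and Tapbp, and 1 lower, B2m, against 17.1% higher and 21.4% lower over all probe sets. Tapbp differed by 0.27 (95% interval -0.28 to 0.82, adjusted p = 0.89 by limma), and B2m by -0.35 (95% interval -1.19 to 0.49, adjusted p = 0.92 by limma). H2-K1 differed by 0.35 (95% interval -0.32 to 1.02, adjusted p = 0.88 by limma). The other differences were 0.13 for H2-D1, -0.05 for Tap1, -0.17 for Tap2 and -0.07 for Psmb8, and the median was 0.04, beside -0.03 over all probe sets. By sign, 4 members were higher and 4 lower, against 46.4% and 52.9% of all probe sets. Psmb9, with no filter, had an adjusted p of 0.95 (limma).

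Beside this, meningeal and fibroblast markers (10 of 11 tested) were higher in exposed cortex for 8 and lower for 2, with none called. They averaged 8.10 and 7.17 on exposed arrays and 7.11 and 7.23 on control arrays. The high value was on exposed array 3, on which H2-T23, H2-K1, H2-D1, B2m and Tapbp were also higher than on exposed array 6. Tap1 (4.21 and 4.72), Tap2 (3.84 and 4.47) and Psmb8 (4.06 and 4.33) were lower on array 3 than on array 6. H2-T23 read 8.83 on exposed array 6, against 7.80 and 8.22 on control arrays. Microglial markers were higher for 4 and lower for 11 of 15, with none called. Whether these markers have a part in the H2-T23 difference was not tested.

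In hippocampus, exposure moved no member past the threshold, while over all probe sets 0.00675% were called higher and 0% lower. Psmb8 had the lowest p among the members, with exposed arrays at 5.03 and 5.05 and control arrays at 4.27 and 4.96. The groups did not overlap, and the difference was 0.43 (SE 0.32, 95% interval -0.27 to 1.12, adjusted p = 0.94 by limma). Without both choroid-plexus-high arrays it was 0.08. H2-D1 did not overlap in the other direction, with a difference of -0.42 (95% interval -1.19 to 0.36, adjusted p = 0.96 by limma), both means being under the filter limit. These were 1 member without overlap in each direction, against 16.7% higher and 14% lower over all probe sets.

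H2-T23 differed by -0.06 in hippocampus (95% interval -0.84 to 0.72, adjusted p = 0.99 by limma), and by 0.14 without both choroid-plexus-high arrays. The remaining differences lay between -0.15 for B2m and 0.18 for Tap2, with a member median of 0.07 beside 0.005 over all probe sets. By sign, 5 members were higher and 3 lower, against 50.6% and 48.8% of all probe sets. No member had an unadjusted p under 0.05, against 5.81% of all probe sets. Psmb9, with no filter, had an adjusted p of 1 (limma).

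Whether exposure acted differently in the tissues was tested directly. H2-T23 had an exposure difference of -0.06 in hippocampus and 1.03 in cortex, and the difference between these was -1.09 (SE 0.51, 95% interval -2.19 to 0.02, unadjusted p 0.054, adjusted p = 1 by limma). None of the 8 members was called by limma, and none had an unadjusted p under 0.05. By sign, 4 members were above 0 and 4 below, against 54.2% and 45.3% of all probe sets. Over all probe sets 0% were called and 3.45% had an unadjusted p under 0.05. By the same test, H2-T23's tissue difference was not shown to differ between exposed and control arrays.

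With both tissues averaged, 6 members were higher and 2 lower with exposure (5 and 3 after quantile normalization, where Tap2 changed sign), against 48.9% and 50.6% of all probe sets, and none was called. No member had an unadjusted p under 0.05, against 5.97% of all probe sets. H2-T23 averaged 7.17 on exposed and 6.69 on control arrays, a difference of 0.48 (95% interval -0.09 to 1.06, adjusted p = 0.84 by limma). The means of same-numbered cortex and hippocampus arrays did not overlap between the exposed and control arms for 2 members, H2-T23 and Tapbp. Both were higher with exposure, against 17.3% of probe sets higher. Over all probe sets 0.00675% were called lower and 0% higher, and that probe set was the choroid plexus gene Ttr. Ttr read 19.51 on hippocampus control 1 and 15.41 on cortex control 6, the arrays high in choroid plexus markers. It read 7.76 on hippocampus control 6 and 4.17 on cortex control 1, and 4.68 to 7.27 on exposed arrays. Each averaged control mean holds 1 of the 2 high arrays, and the average could not be fitted without both.

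**Figure D3:**
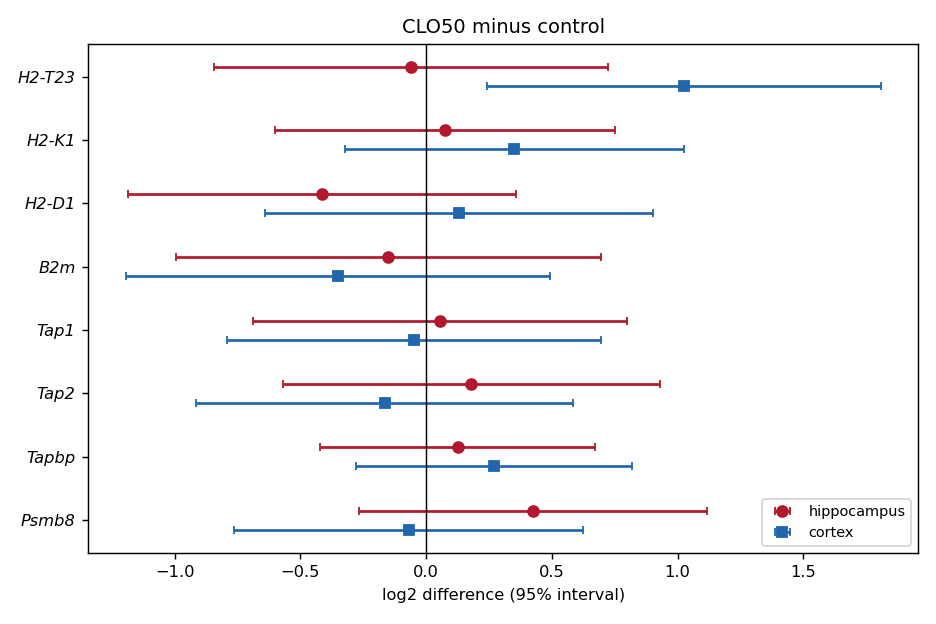
CLO50 minus control difference in log2 expression of the 8 tested members in hippocampus and cortex, with 95% intervals from limma. No difference was called, and only the cortical interval of H2-T23 (0.24 to 1.81) lies clear of 0.

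Among the tested members, the 2 arrays of a group differed most for B2m in hippocampus. The gap, number 1 or 3 minus number 6, was 1.15 in exposed and 1.15 in control hippocampus, and 0.34 in exposed and 0.04 in control cortex. A gap at least this large in size was seen in 2.67% of probe sets in exposed hippocampus and 4.55% in control hippocampus. H2-K1 was lower on the array numbered 6 in each group, with gaps of 0.61 in exposed and 0.46 in control hippocampus, and 0.61 in exposed and 0.25 in control cortex. Tap2 was higher on the array numbered 6 in each group, with gaps of -0.58 in exposed and -0.50 in control hippocampus, and -0.63 in exposed and -0.10 in control cortex.

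The meningeal and fibroblast average moved with B2m in hippocampus, at 8.28 and 6.67 on the exposed arrays and 8.29 and 7.32 on the control arrays (number 6 last). The endothelial average stood at 8.61 and 8.27 on these exposed arrays and 8.47 and 8.23 on these control arrays. The microglial average stood at 8.01 and 7.62 on the exposed and 7.94 and 7.82 on the control arrays. These 3 averages, and that of the choroid plexus markers (4.87 and 4.85 on exposed, 11.08 and 4.88 on control arrays), were lower on the number 6 array in both hippocampal groups. So was that of the cortical neuron markers (9.07 and 8.56 on exposed, 8.53 and 8.45 on control arrays). The MHC class II, interferon-stimulated, proteasome core and peptide loading averages were also lower on the number 6 array in both. Astrocyte, oligodendrocyte, general neuron, hippocampal neuron and ependymal averages were lower on it in only 1 of the 2 groups. The part of any of these lists in the B2m gap was not tested. For exposure in hippocampus the B2m difference was -0.15 (95% interval -0.99 to 0.69, adjusted p = 0.99 by limma).

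**Figure D4:**
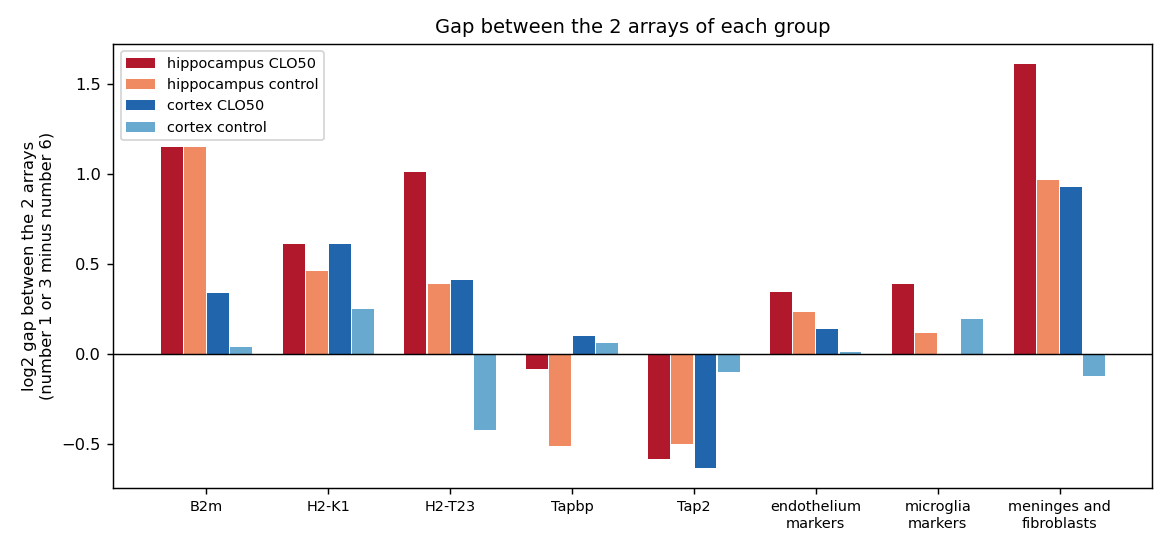
Gap in log2 expression between the 2 arrays of each group (number 1 or 3 minus number 6) for 5 members and for the average of 3 marker lists, by group. B2m and the meningeal and fibroblast average have positive gaps in both hippocampal groups, and Tap2 has negative gaps in all 4 groups.

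The other genes of the pathway came from lists. Of 16 other class I heavy chains, 3 were tested, all nonclassical. H2-T22, a ligand of some gamma delta T cells, read 6.62 and 6.58 in exposed and 6.07 and 6.17 in control cortex, a difference of 0.48 without overlap (adjusted p = 0.82 by limma). H2-T24 differed by 0.44 in cortex (adjusted p = 0.89 by limma), and H2-T10 by 0.28 in hippocampus (adjusted p = 0.96 by limma). None of the 3 was called in any of these comparisons. Their medians for exposure were 0.04 in hippocampus and 0.44 in cortex. Between tissues none was called, with 0 higher and 3 lower in hippocampus on exposed arrays, and 1 higher and 2 lower on control arrays. Arrays did not overlap for 2 of the 3 in each arm, both lower in hippocampus. Over all probe sets these shares were 22% on exposed and 24.7% on control arrays.

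Among class I related molecules (3 of 5 tested), Mr1, which presents vitamin B metabolites to MAIT cells, read 5.12 and 4.94 in exposed and 7.44 and 5.76 in control hippocampus. The difference was -1.57 and was not called (adjusted p = 0.77 by limma), and the highest reading was on the array with the high choroid plexus markers. Hfe, a regulator of iron uptake, read 5.02 and 4.69 in exposed and 5.60 and 5.31 in control hippocampus, a difference of -0.60 without overlap (adjusted p = 0.88 by limma). In cortex Hfe differed by 0.67 (adjusted p = 0.81 by limma) and Fcgrt, the neonatal Fc receptor, by -0.37 (adjusted p = 0.91 by limma). None of the 3 was called for exposure, with 0 higher and 3 lower in hippocampus and 1 higher and 2 lower in cortex.

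Partners in peptide supply and loading numbered 9, all tested, and none was called for exposure. With exposure, 2 were higher and 7 lower in hippocampus, and 2 higher and 7 lower in cortex, with medians of -0.22 and -0.10. The smallest p belonged in hippocampus to Tapbpl, a tapasin relative that edits peptides (0.55, adjusted p = 0.85 by limma), and to Psme3 (-0.33, adjusted p = 0.93 by limma). In cortex they belonged to Psme1 (-0.91, adjusted p = 0.81 by limma) and to Erap1, the peptidase that trims peptides in the endoplasmic reticulum (-0.34, adjusted p = 0.88 by limma).

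The constitutive proteasome core, which the inducible subunits join or replace, had 13 of 14 genes tested. With exposure 8 were higher and 5 lower in hippocampus (median 0.25), and 10 were higher and 3 lower in cortex (median 0.19), with none called. Psma7 differed by 0.64 in hippocampus (adjusted p = 0.85 by limma), and Psma6 by 0.42 in hippocampus (adjusted p = 0.90 by limma) and 0.51 in cortex (adjusted p = 0.81 by limma). The Psma6 readings did not overlap between exposed and control arrays in either tissue.

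Transcription factors of class I genes had 12 of 14 genes tested, with none called for exposure. In hippocampus 5 were higher and 7 lower, and in cortex 6 and 6. Creb1, which binds cyclic AMP response elements, read 9.03 and 9.05 in exposed and 8.50 and 8.58 in control hippocampus, and 9.35 and 9.61 in exposed and 9.13 and 8.74 in control cortex. It was without overlap in both tissues, at 0.50 in hippocampus (adjusted p = 0.86 by limma) and 0.55 in cortex (adjusted p = 0.80 by limma). Rfxank, a subunit of the RFX complex, was at -0.68 in hippocampus (adjusted p = 0.85 by limma).

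Interferons induce most of the members. The 5 interferon ligand genes listed were all under the filter limit. Receptors and their kinases (7 of 7 tested) had none called for exposure, with medians of 0.21 in hippocampus and 0 in cortex. Tyk2, a kinase of the type I interferon receptor, differed by 0.41 in hippocampus (adjusted p = 0.94 by limma), and Ifnar2, a chain of that receptor, by -0.59 in cortex (adjusted p = 0.83 by limma).

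Of 28 interferon-stimulated genes, 19 were tested. With exposure 7 were higher and 12 lower in hippocampus (median -0.10), and 11 higher and 8 lower in cortex (median 0.06), with none called. Ifih1, a sensor of double-stranded RNA, read 6.64 and 6.12 in exposed and 5.95 and 5.33 in control cortex, a difference of 0.74 (adjusted p = 0.80 by limma). Igtp, a GTPase induced by interferon gamma, differed by 0.60 in cortex (adjusted p = 0.81 by limma). In hippocampus Ddx58 was at -1.01 (adjusted p = 0.83 by limma) and Gbp2 at 0.95 (adjusted p = 0.86 by limma).

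MHC class II genes, which serve CD4 T cells, had 4 of 10 genes tested, with none called. H2-Ab1 read 4.23 and 4.03 in exposed and 4.24 and 4.73 in control hippocampus, and 4.13 and 3.98 in exposed and 3.48 and 3.73 in control cortex. It was at -0.36 in hippocampus and 0.45 in cortex with exposure (adjusted p = 0.96 and 0.85 by limma).

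Between tissues, 70 of these pathway genes were tested. On exposed arrays 2 were called higher in hippocampus (Ifngr2, Parp14) and 3 lower (Psmb10, Irf9, Igtp), and on control arrays 5 were called higher (Mr1, Hfe, Nfyb, Ifngr2, Parp14) and 3 lower (Psmb10, Nfyc, Irgm1). Over all probe sets 9.25% were called higher and 5.22% lower on exposed arrays, and 10.1% higher and 7.63% lower on control arrays, so these counts are at or below the general rate. Igtp in exposed hippocampus (3.35 and 3.60) and Parp14 in cortex (3.58 and 3.44 on exposed, 3.81 and 3.10 on control arrays) were under the filter limit, so both entered the test through the tissue where they are high. Each of these calls was lost in at least 1 of 9 fits that left out 1 array or both arrays high in choroid plexus markers. On control arrays this ranged from 1 of 9 fits for Mr1 to 7 for Nfyc and all 9 for Hfe. Psmb10, the third inducible proteasome subunit, read 5.75 and 4.58 in exposed and 4.95 and 5.66 in control hippocampus, against 6.99 and 6.96 in exposed and 7.12 and 6.91 in control cortex. No hippocampal array reached a cortical one.

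The Psmb10 difference was -1.81 on exposed arrays (adjusted p = 0.0086 by limma), with adjusted p of 0.056 without cortex CLO50 3 and 0.08 without hippocampus CLO50 6. On control arrays it was -1.71 (adjusted p = 0.0097 by limma), with 0.081 without cortex control 1, 0.051 without cortex control 6, 0.058 without hippocampus control 1 and 0.13 without both choroid-plexus-high arrays. Psmb8, which sits in the same immunoproteasome, was at 0.85 and 0.35 in these comparisons and was not called in either. Mr1 was higher in hippocampus on control arrays by 2.24 (adjusted p = 0.0046 by limma), at 1.40 (adjusted p = 0.022 by limma) without hippocampus control 1, and at 1.28 (adjusted p = 0.1 by limma) without both choroid-plexus-high arrays.

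The genes whose values over the 8 arrays were most like the members' mean, each member first centred on its own mean, were Stat5a (r = 0.990), Zfp580 (0.984), Far2 (0.977), Mkx (0.976) and Emc8 (0.975). The points share the tissue difference. With tissue means removed they were Efemp1 (0.977), Fbxw9 (0.962), Nudt14 (0.960), Stat5a (0.959) and Fam174c (0.956). These are the highest correlations among all genes tested, over few arrays, and are given as a description.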

How the data were processed

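Total RNA (250 ng per sample, integrity number above 7.0) was amplified, biotin-labelled and hybridised to 1-colour Affymetrix arrays, per the labels' protocols. The deposited values are log2 expression per probe set, normalized by the authors with RMA, per the submitters' processing notes. The log base was taken from RMA's usual output and the range of 1.59 to 19.93, since it is not written in the file. Not given in the sources used here: RMA's version, the summary level, and whether arrays were normalized jointly. Scanner files and detection values were not used here, and precision rests on how many arrays there were.

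Of 22206 probe sets, 19572 had 1 gene symbol, 0 several and 2634 none. The lowest 33.3% by mean (under 3.937) were left out. All arrays entered 1 limma fit (version 3.58.1, R 4.3.3) with a mean per group (eBayes with a trend, two-sided, Benjamini-Hochberg over the 14804 probe sets tested). The averaged comparison used means of arrays with the same arm and number. The fit was tested on simulated data. No 2 arrays were identical.

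The members and the 21 pathway and marker lists were chosen with earlier results of these data known. All members are named, and from each pathway list the 2 genes with the smallest p for exposure. Array numbers recur across tissues. Deviations of same-numbered arrays correlated at -0.00088 in control and 0.28 in exposed pairs, and the consensus correlation by arm and number was 0.19. The choroid-plexus-high control arrays carry different numbers, so these values do not settle whether a number is 1 animal. The main fits did not use the numbers as a block, and there only the averaged comparison joined arrays by number. Alternatives changed the filter, scaling, variance model, array weights, block and arrays used. Leaving out arrays for pathway genes was chosen after seeing the data. Promoters were matched by symbol and aligned with Biopython 1.88.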

Additional observations from a re-analysis of the deposited data

How the results depend on the processing

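Over 760 alternative values of 48 member differences, 705 kept direction and side of the threshold, 4 lost the call, 1 gained it and 50 changed sign, none of the last being a called difference. Many of these alternatives, such as a changed filter or leaving out an array of another group, cannot move the fitted difference. Most differences were also uncalled at the start, so the 705 is not a measure of stability. The H2-T23 tissue calls held throughout. The count of probe sets called for exposure in cortex (1) was 0 after quantile normalization and without the variance trend, 2 with array weights, with arm and number as a random replicate block, and with only the 4 arrays of the comparison, and 3 without both choroid-plexus-high arrays. In hippocampus (1) it was 0 after quantile normalization, without the trend, with array weights, with only 4 arrays and without both choroid-plexus-high arrays. For the difference between tissues (0) it was 3 with a random and 1 with a fixed replicate block, and for the average (1) it was 0 with the random replicate block. Tissue calls on control arrays (2620) fell to 1155 without both choroid-plexus-high arrays, and with the random replicate block they numbered 3426, against 2902 on exposed arrays (2143). No member call changed with the replicate block. Leaving out 1 array gave counts of 0 to 2 in cortex, 0 to 56 in hippocampus (56 without hippocampus control 6), 0 to 30 for the difference, 1074 to 2440 for the tissues on exposed and 1289 to 2532 on control arrays, and 1 to 26 for the average. Without both choroid-plexus-high arrays, signs changed for exposure in cortex for Psmb8 (0.005), in hippocampus for H2-T23 (0.14), B2m (0.43), Tap1 (-0.23), Tap2 (-0.07) and Tapbp (-0.13), and for the difference between tissues for H2-K1 (0.08). Quantile normalization turned Tap2 in the average (-0.0089). Leaving out 1 array, members that changed sign ranged in cortex from -0.29 to 0.55 (H2-D1), -0.31 to 0.21 (Tap1), -0.48 to 0.15 (Tap2) and -0.21 to 0.065 (Psmb8). In hippocampus they ranged from -0.57 to 0.45 (H2-T23), -0.23 to 0.38 (H2-K1), -0.73 to 0.43 (B2m), -0.23 to 0.34 (Tap1), -0.11 to 0.47 (Tap2) and -0.13 to 0.38 (Tapbp). For the difference the ranges were -0.58 to 0.03 (H2-K1), -0.38 to 0.78 (B2m), -0.18 to 0.39 (Tap1) and -0.40 to 0.11 (Tapbp). For the tissues they were -1.09 to 0.06 (B2m) and -0.27 to 0.24 (Tap1) on exposed arrays, and -0.28 to 0.19 (H2-K1) and -0.41 to 0.17 (Tap1) on control arrays. For the average, both arrays of 1 arm and number were left out together. The ranges there were -0.0925 to 0.52 (H2-K1), -0.35 to 0.065 (H2-D1), -0.62 to 0.12 (B2m), -0.0375 to 0.0425 (Tap1), -0.30 to 0.31 (Tap2) and -0.0325 to 0.39 (Psmb8). The cause of these changes was not tested. A group left with 1 array, or an arm left with 1 mean, is assumed to vary like the others. The average could not be fitted without both choroid-plexus-high arrays, and the fixed block applies only to comparisons within number. With 2 arrays a group and no detection values, small differences and low levels such as those of H2-D1, Tap1, Psmb8 and Psmb9 are weakly determined.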
